A study of Arabidopsis thaliana with 17 samples.

Results

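WRKY transcription factors are a plant family of DNA-binding proteins, and 46 members of it were followed here in whole roots of Arabidopsis thaliana. They were taken from a fixed list of gene identifiers, out of 72 genes that the RefSeq names place in the family and 37336 features in the deposited tables. The members were chosen from earlier results on these libraries, with the difference between bamboo and wild-type roots in view. The values of that difference are therefore given as a description, and the members were not tested as a set. Counts of members called in fits over all genes are printed beside the shares of all genes, and nothing is read from them. The sources used here do not say why the other 26 WRKY genes were left off. Reference sequences of the members were not used here.

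A WRKY protein carries the WRKY domain, a short conserved peptide followed by a zinc finger, which reads a promoter element called the W box. Many WRKY genes are switched on within minutes of wounding, microbial signals or abiotic stress, often downstream of MAP kinases, and WRKY proteins act on each other's promoters as well as on defence genes. In roots they are also known for work in phosphate uptake, the response to salicylate and lateral root growth. The family is divided by structure into group I, with a pair of WRKY domains, groups IIa to IIe, with a single domain, and group III, whose zinc finger has a different pattern of cysteine and histidine.

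The study concerns BAMBOO, a long noncoding RNA, together with NF-YA2, which is part of the NF-Y complex. Whole-root libraries of bamboo (2 libraries, replicates 2 and 3), of the wild type deposited with it, Col-0-b (3 libraries), and of a second wild type, Col-0 (3 libraries), were used. All 8 came from plants 14 days old under mock treatment, and no transgene is named for them. The submitters call bamboo a mutant, and the label of its deposited values holds the letters KD, a common short form of knockdown. The sources used here do not spell out KD or give the lesion. They also do not give the number of plants per library or whether replicates were grown separately. Errors and p-values therefore rest only on the spread between these libraries. In whole roots fewer cells of a type and less RNA per cell cannot be told apart.

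Depth was 22755962 and 24333119 reads in bamboo, 16963843 to 20743588 in Col-0-b and 13637179 to 21206367 in Col-0. Root markers were present in every library, with all 9 of 9 genes past the minimum used for testing (normalized counts reaching 10 in 2 or more libraries). Their summed level was 16751 and 17427 normalized counts in bamboo, against 19198 to 21051 in Col-0-b. PHO1, given below among the phosphate genes, made up much of this sum and of its difference. By gene, the median log2 fold change of the 9 root markers (bamboo minus Col-0-b) was -0.14, the lowest being -0.58. Of these genes 3 were above 0 and 6 below, and limma called 0 in either direction. DESeq2 on the recovered reads called PIN2 (log2 fold change -0.55) and PHO1 (-0.36) as lower, beside 0.597% of all tested genes. A replicate block in limma also called PIN2 (-0.60) and PHO1 (-0.37) as lower, beside 1.87% of all tested genes. The 6 photosynthetic genes used as markers of shoot tissue summed to 1578 and 1449.9 normalized counts in bamboo. In Col-0-b replicates 1, 2 and 3 they summed to 2467, 1147 and 1116, and RBCS3B was below the minimum. All 5 tested shoot markers had a fold change above 0 (median 0.13) with overlapping libraries, and limma called 0. The replicate block called CAB1 (0.97) and RBCS1A (0.52) as higher, beside 2.53% of all tested genes. Bamboo replicate 2 stood apart, at 34.8 on a first principal component that held 44.6% of the variance, against 6.45 for bamboo replicate 3 and -21.9 to -8.56 for Col-0-b. The part of these differences between libraries in the results was not tested.

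Most WRKY genes had slightly higher values in bamboo roots. Of the 46 genes, 45 passed the minimum, and 40 of these had a fold change above 0, a share of 88.9%, where 49.9% of all 20274 tested genes did. Their median log2 fold change was 0.23 (1.17-fold), and that of all tested genes was 0.00. A fold change is the bamboo mean minus the Col-0-b mean of log2(normalized count + 1), a scale that understates the change of low genes. SE is its standard error in limma, which draws the spread of a gene towards that of genes at a similar level. An SE can thus differ from the spread of the gene's own libraries. None of the 45 reached a 2-fold difference, and the single-gene values ran from -0.41 for WRKY46 to 0.91 for WRKY30. The remaining gene, WRKY41, had 1.86 and 4.24 normalized counts in bamboo and 1.01 to 2 in Col-0-b, near the level that 3 reads give, and is left out of every count and median of bamboo against Col-0-b.

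Both bamboo libraries lay above all 3 Col-0-b libraries for 24 of the 45 members, where 17.1% of all tested genes showed that pattern. They lay below all 3 for 3 members (17.5% of all tested genes), namely WRKY2, WRKY38 and WRKY46, and the groups overlapped for the other 18. Over all tested genes the groups were free of overlap, in either direction, for 34.6%. Over all genes, limma called 14 genes as higher and 13 as lower in bamboo at an adjusted p of 0.05 (0.0691% and 0.0641% of tested genes), and 0 of the 45 members were among them. At an unadjusted p under 0.05 there were 15 members, beside 16.8% of all tested genes. On the recovered reads edgeR called 0 members and DESeq2 called 1, WRKY45, beside 0.917% of all tested genes as higher and 0.597% as lower. A replicate block in limma called 7 members as higher, beside 2.53% of all genes as higher and 1.87% as lower. Limma called 10 members without bamboo replicate 3 (4.44% of all genes higher, 5.22% lower) and 0 without bamboo replicate 2 (0.0645% higher, 0.0893% lower). Since the list was drawn up on this contrast, nothing is read from these counts.

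The upward shift was smaller in bamboo replicate 3. Set against the Col-0-b mean, bamboo replicate 2 gave a member median of 0.26 with 37 of the 45 genes above 0, and bamboo replicate 3 gave 0.14 with 40 above 0. Bamboo replicate 2 was the higher of the pair for 32 of the 45 members (71.1%, against 50.5% of all tested genes). Among the wild-type libraries, Col-0-b replicate 3 was the lowest for 28 of the 45 (62.2%, against 33.8% of all tested genes). Without bamboo replicate 2 the members' median was 0.14, and without Col-0-b replicate 3 it was 0.18.

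**Figure D1:**
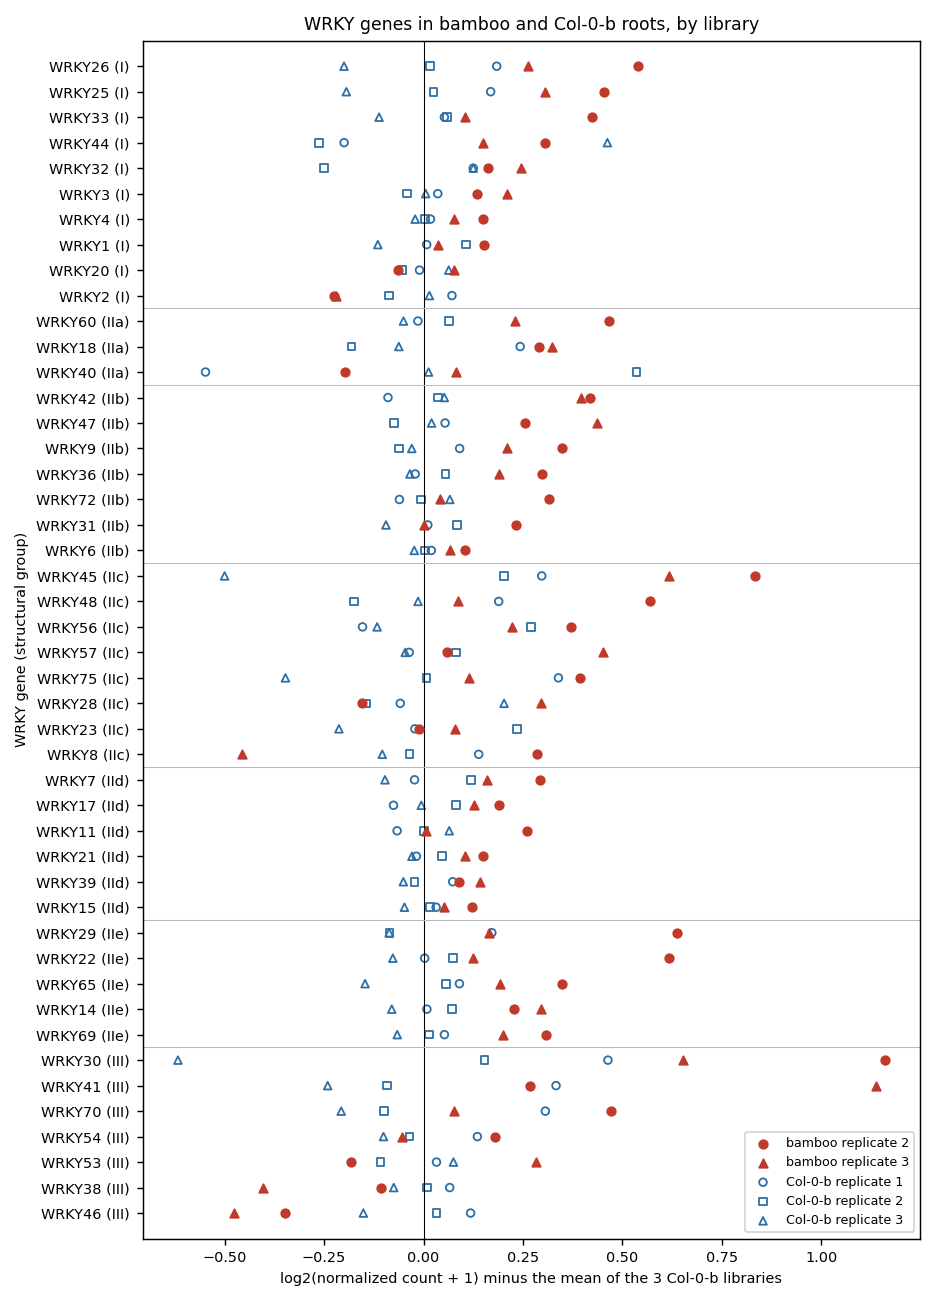
Each row is a WRKY gene, ordered by structural group, and the horizontal axis is log2(normalized count + 1) minus the mean of the 3 Col-0-b libraries. Filled red symbols are the bamboo libraries and open blue symbols the Col-0-b libraries. For 24 of the 45 genes past the minimum both red symbols lie right of all 3 blue ones, and WRKY41, drawn here with the rest, is below the minimum.

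Group I, the proteins with a pair of WRKY domains, had a median log2 fold change of 0.19, with 9 of 10 genes above 0. WRKY33 (AT2G38470), needed for resistance to necrotrophic fungi and for camalexin synthesis, had 2769 and 2218 normalized counts in bamboo, against 2139.7, 2149 and 1909 in Col-0-b. Its bamboo libraries were both above the wild type, the lower of them by little, and the log2 fold change was 0.26 (SE 0.10). WRKY26 and WRKY25, which act with WRKY33 in heat tolerance, showed the largest differences of the group. WRKY26 (AT5G07100) had 537 and 443 normalized counts in bamboo and 419.8, 373 and 321 in Col-0-b, a log2 fold change of 0.40 (SE 0.12). WRKY25 (AT2G30250) had 1021 and 921 in bamboo and 838, 758 and 651 in Col-0-b (0.38, SE 0.10). In both genes Col-0-b replicate 3 was the lowest library and the groups did not overlap. WRKY2 (AT5G56270), known from seed germination and pollen development, differed the other way, with 217 and 218 normalized counts in bamboo and 267, 239 and 257 in Col-0-b (-0.22, SE 0.11).

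The other members of group I lay between these. WRKY3, WRKY4 and WRKY32 were higher in both bamboo libraries than in every Col-0-b library, with log2 fold changes of 0.17, 0.11 and 0.20. WRKY44, better known as TTG2 for its work in trichomes and the seed coat, had 0.23 (SE 0.24) with overlapping groups. WRKY1, named ZAP1 in the reference, had 0.09 and WRKY20 had 0.01, and their groups overlapped too.

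Group IIa holds WRKY18, WRKY40 and WRKY60, related proteins that pair with each other and act in defence and abscisic acid responses. WRKY60 (AT2G25000) had 466 and 396 normalized counts in bamboo, against 334, 352 and 325 in Col-0-b, a log2 fold change of 0.35 (SE 0.10). WRKY18 (AT4G31800) had 96.0 and 98.3 in bamboo and 92.9, 69.0 and 75.0 in Col-0-b (0.31, SE 0.18). Both genes were higher in the bamboo libraries without overlap, though for WRKY18 the gap to Col-0-b replicate 1 was small. WRKY40 (AT1G80840) had 27.0 and 33.0 normalized counts in bamboo and 21.0, 45.6 and 31.4 in Col-0-b (-0.06, SE 0.32), so its bamboo libraries lay inside the range of the wild type. The WRKY40 value was above 0 without bamboo replicate 2 or without Col-0-b replicate 2.

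Group IIb had a median of 0.24 and all 7 genes above 0. WRKY42 and WRKY6 repress the phosphate exporter gene PHO1, and WRKY42 also activates the phosphate transporter gene PHT1;1. WRKY42 (AT4G04450) had 113 and 111 normalized counts in bamboo, against 79.0, 86.3 and 87.2 in Col-0-b (0.41, SE 0.16), with close agreement inside each group. WRKY6 (AT1G62300) had 1689.8 and 1646 in bamboo and 1594, 1576 and 1547 in Col-0-b (0.08, SE 0.07), a narrow gap in the same direction. WRKY47 (AT4G01720) had 369 and 419 normalized counts in bamboo and 321, 293 and 313 in Col-0-b (0.35, SE 0.10). WRKY9 (0.28) and WRKY36 (0.24), a repressor of HY5 in the UV-B response, were also higher in both bamboo libraries without overlap, while WRKY72 (0.18) and WRKY31 (0.12) overlapped.

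Group IIc had a median of 0.25 with 7 of 8 genes above 0, but the libraries overlapped for 7 of the 8. The exception was WRKY45 (AT3G01970), an activator of PHT1;1 under phosphate starvation, with 615 and 529.6 normalized counts in bamboo, against 424, 397 and 243 in Col-0-b. Its log2 fold change of 0.73 (SE 0.24) was the second highest among the members, and Col-0-b replicate 3 stood well below its other wild-type libraries. WRKY75, which also acts in phosphate starvation and in root growth, had 0.25 with overlapping groups. WRKY57 (AT1G69310), tied to drought tolerance and leaf senescence, had 703 and 922 normalized counts in bamboo and 658, 714 and 653 in Col-0-b (0.26, SE 0.11). Its value rested on bamboo replicate 3, being 0.45 without bamboo replicate 2 and 0.06 without bamboo replicate 3. WRKY48 (AT5G49520), a negative regulator of basal resistance, had 253 and 180.5 in bamboo and 194, 150.4 and 168 in Col-0-b (0.33, SE 0.16), and here bamboo replicate 2 was the library set apart. WRKY56 (0.30), WRKY28 (0.07), WRKY23 (0.03) and WRKY8 (-0.09) overlapped as well.

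Group IId proteins bind calmodulin, and WRKY7, WRKY11 and WRKY17 restrain basal resistance to bacteria. All 6 genes were above 0, with a median of 0.13 and a narrow range up to 0.23. WRKY7 (AT4G24240) had 1147 and 1047 normalized counts in bamboo, against 921, 1017 and 875 in Col-0-b (0.23, SE 0.09). WRKY17 (AT2G24570) had 2222 and 2128 in bamboo and 1849.9, 2062 and 1942 in Col-0-b (0.16, SE 0.07). WRKY39 (AT3G04670), linked to heat tolerance, had 2241 and 2324 in bamboo and 2216, 2073 and 2033 in Col-0-b (0.12, SE 0.07). Without overlap but with small steps between the groups, these 3 were joined by WRKY15 (0.09) and WRKY21 (0.13), while WRKY11 (0.13) overlapped.

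Group IIe had a median of 0.27 and all 5 genes above 0. WRKY22 and WRKY29 act downstream of MAP kinases in the response to bacterial flagellin. WRKY29 (AT4G23550) had 1231 and 887 normalized counts in bamboo, against 891, 746 and 745 in Col-0-b (0.40, SE 0.14), so that bamboo replicate 3 fell inside the wild-type range. WRKY22 (AT4G01250) had 135 and 95.8 in bamboo and 87.9, 92.4 and 83.1 in Col-0-b (0.37, SE 0.18). For both genes bamboo replicate 2 was far above the rest, and without it the values were 0.16 for WRKY29 and 0.12 for WRKY22. WRKY65 (AT1G29280) had 3511 and 3151 in bamboo and 2937, 2869 and 2491 in Col-0-b (0.27, SE 0.09), and WRKY14 (0.26) and WRKY69 (0.25) were likewise higher without overlap.

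Group III, which holds many of the salicylate-linked members, had the most mixed values, with 4 of 6 tested genes above 0 and a median of 0.06. WRKY70 (AT3G56400), a regulator at the crossing of salicylate and jasmonate signalling, had 673 and 511 normalized counts in bamboo, against 599.6, 452 and 419.8 in Col-0-b (0.27, SE 0.17). WRKY30 (AT5G24110) had 23.3 and 16.1 in bamboo and 14.0, 11.1 and 6.08 in Col-0-b (0.91, SE 0.42), and WRKY46 (AT2G46400) had 14.9 and 13.6 in bamboo and 21.0, 19.7 and 17.2 in Col-0-b (-0.41, SE 0.32). Among WRKY genes past the minimum these are the largest values in each direction, and both rest on low counts. WRKY38, which dampens basal defence, was lower in bamboo (-0.26), and WRKY54 (0.06) and WRKY53 (0.05), regulators of leaf senescence, overlapped.

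**Figure D2:**
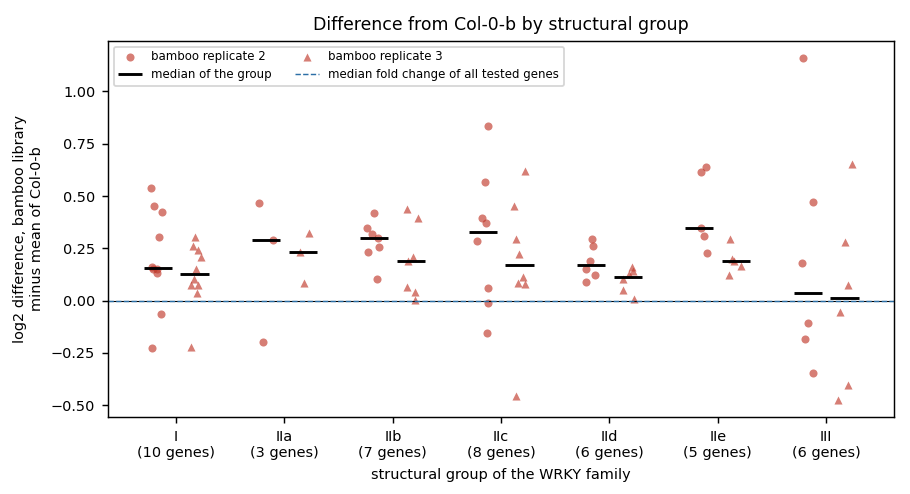
The vertical axis is the log2 difference between a bamboo library and the mean of Col-0-b, by structural group; points are genes, circles for bamboo replicate 2 and triangles for bamboo replicate 3, bars are medians and the dashed line is the median of all tested genes. All 7 group medians lie above 0 in both libraries, those of group III least so at 0.04 and 0.01.

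The WRKY genes off the list showed less of a shift. Of the other 26, 16 passed the minimum, and their median was 0.09. Of the 16, 10 had a fold change above 0 (62.5%, against 49.9% of all tested genes). Both bamboo libraries lay above all Col-0-b libraries for 2 of the 16 (12.5%, against 17.1% of all tested genes). These were WRKY58 (0.45) and WRKY43 (0.44), which also had the largest differences. With the listed genes, the whole family had 50 of 61 tested genes above 0 and a median of 0.17. Whether listed and unlisted genes differ was not tested, since the list was drawn up with these values known.

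The second wild type, Col-0, is not part of the contrast between bamboo and Col-0-b, but its libraries were among the data at hand when the list was made, so its values are a description too. It came in a separate table of raw counts, so its levels are given as CPM (counts scaled to a common library total) and are not tested against the others. All 46 members had at least 10 reads in at least 2 of its 3 libraries. In Col-0 the WRKY genes varied widely from library to library: 14 of 46 differed by at least 2-fold between the highest and the lowest library, where 12.9% of all 19888 genes past the same minimum did. The median ratio of highest to lowest was 1.40 for the members and 1.27 for all genes. In Col-0-b only WRKY30 and WRKY40 reached 2-fold (3.18% of all tested genes), and the median ratio was 1.13 for the members and 1.14 for all genes.

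These 14 genes were 6 of the 7 in group III, 2 of the 3 in group IIa, 4 of the 8 in group IIc and 2 of the 5 in group IIe. Col-0 replicate 1 was the lowest library for 11 of them, and the share of all genes lowest there was not counted. WRKY40 had 4.25, 24.1 and 27.7 CPM in Col-0 replicates 1, 2 and 3. WRKY18 had 6.64, 14.9 and 24.2 CPM in the same libraries. The third member of group IIa did not share this spread: WRKY60 had 22.1, 22.4 and 22.1 CPM. In group III, WRKY46 had 1.38, 5.80 and 7.41 CPM, WRKY53 had 3.06, 10.3 and 9.46 CPM and WRKY54 had 4.49, 7.31 and 13.9 CPM, all lowest in replicate 1. WRKY38 had 2.01, 11.3 and 2.49 CPM, high in replicate 2 alone. In group IIe, WRKY22 had 4.15, 16.98 and 9.24 CPM and WRKY29 had 9.36, 23.7 and 25.9 CPM. Group IIc was mixed. WRKY57 had 45.6, 31.4 and 18.6 CPM, highest in replicate 1 and lowest in replicate 3. WRKY28 had 1.86, 1.27 and 2.64 CPM and WRKY8 had 1.43, 1.13 and 3.01 CPM, both lowest in replicate 2. Both rest on few reads, 39, 27 and 36 for WRKY28 and 30, 24 and 41 for WRKY8. WRKY48 was lowest in replicate 1.

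Set against the mean of the 3 Col-0 libraries on the log2 scale, group III had medians of -0.92, 0.61 and 0.50 in replicates 1, 2 and 3, and all genes had 0.02, 0.00 and 0.01. Replicate 1 was the highest library for 5 of the 46 members (10.9%) and for 38.0% of all genes. A list of 18 genes induced early by stress and touch, among them ZAT10, ERF6 and TCH4, moved with them. Its medians were -0.22, 0.23 and 0.09 and its summed levels 456, 679 and 543 CPM in replicates 1, 2 and 3. Of the lists described below, MAP kinase, salicylate, VQ protein and senescence genes were also low in replicate 1, at -0.18, -0.17, -0.13 and -0.11. Camalexin and indole genes had a median of -0.02 there, phosphate genes -0.06 and epidermal genes 0.08. The shoot markers summed to 33.2, 32.4 and 40.5 CPM in replicates 1, 2 and 3, and the root markers to 869, 904 and 929.9 CPM. The count of 14 members past 2-fold was 3 without Col-0 replicate 1 (6.77% of all genes), 11 without replicate 2 (10.4%) and 9 without replicate 3 (4.58%), and it was also 14 with TMM-scaled counts. What set Col-0 replicate 1 apart was not tested.

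Levels also differed between the wild types. All 3 Col-0 libraries were above all 3 Col-0-b libraries in CPM for 19 of 45 members, where 27.8% of 19593 genes past both minimums were, and below them for 4 members (25.0% of genes). The tables were processed separately, and the sets cannot be told apart from whatever else differed between them. WRKY40 averaged 18.7 ± 12.6 CPM in Col-0 and 1.57 ± 0.586 CPM in Col-0-b (SD, n = 3 each), a ratio of 11.9. WRKY38 averaged 5.27 ± 5.24 CPM in Col-0 and 0.825 ± 0.0425 CPM in Col-0-b, with a high value in 1 Col-0 library. WRKY46 averaged 4.86 ± 3.12 CPM in Col-0 and 0.929 ± 0.0912 CPM in Col-0-b. WRKY30 averaged 2.05 ± 0.259 CPM in Col-0 and 0.4996 ± 0.193 CPM in Col-0-b, the closest agreement between Col-0 libraries among these genes. WRKY18 averaged 15.2 ± 8.79 CPM in Col-0 and 3.801 ± 0.612 CPM in Col-0-b. WRKY29, WRKY31, WRKY36 and WRKY54 were the 4 genes lower in every Col-0 library, and WRKY54 averaged 8.55 ± 4.81 CPM in Col-0 and 16.6 ± 1.46 CPM in Col-0-b. For WRKY18, WRKY38, WRKY40 and WRKY46 the ratios of Col-0 to Col-0-b means were 4.01, 6.39, 11.9 and 5.24, on a plain ratio of CPM means. That scale differs from the log2 fold changes given for bamboo.

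**Figure D3:**
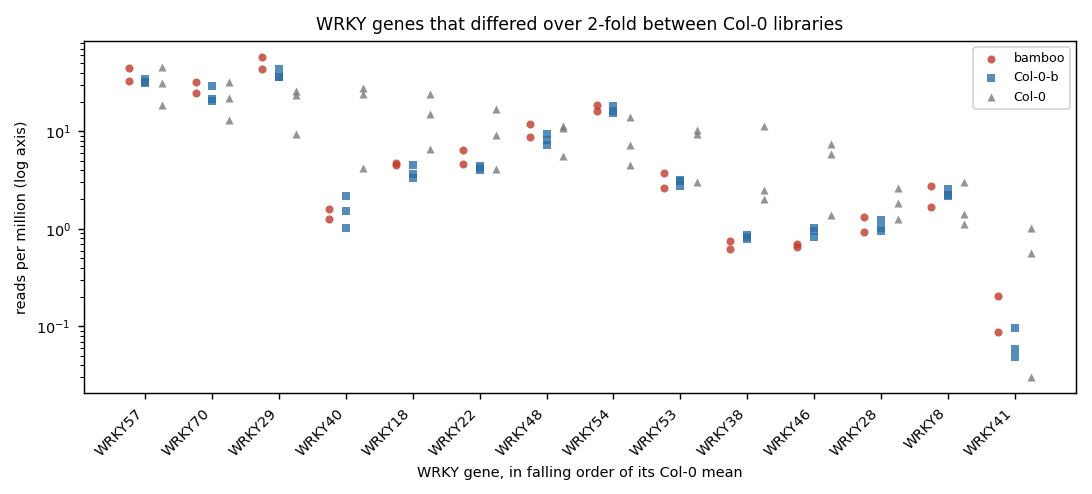
CPM on a log axis for the 14 WRKY genes that differed at least 2-fold between Col-0 libraries; each symbol is a library, red circles for bamboo, blue squares for Col-0-b and grey triangles for Col-0. WRKY41 had 0 reads in Col-0 replicate 1, drawn at the foot of the axis. WRKY40, WRKY46 and WRKY38 lie higher in Col-0 than in bamboo or Col-0-b, and WRKY29 and WRKY54 lower.

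Genes that act before, beside and after WRKY factors were followed in bamboo through 8 lists, with 82 genes of which 73 passed the minimum. Limma called 0 of the 73 (0.133% of all tested genes), edgeR called 0 and DESeq2 called 1, PHO1, beside 0.917% of all tested genes as higher and 0.597% as lower. At an unadjusted p under 0.05 there were 13 of the 73, or 17.8%, near the 16.8% of all tested genes. Adjusted p-values from limma ran from 0.0904 to 0.994. No list is thus shown to differ between bamboo and Col-0-b, and the medians below are descriptions beside the median of 0.00 for all genes.

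Upstream, the MAP kinase cascade had a median of -0.02, with 4 of 10 genes above 0. Its largest value was that of MPK11, a kinase switched on by microbial signals, with 145 and 69.5 normalized counts in bamboo, against 64.0, 54.2 and 45.6 in Col-0-b (log2 fold change 0.88, SE 0.29, limma adjusted p = 0.182). Bamboo replicate 2 lay far above the rest there, and MKK1 followed at 0.24. VQ proteins, small partners that bind WRKY domains, had a median of -0.07 with 2 of 6 tested genes above 0, SIB1 at -0.30 and MKS1 at 0.21.

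Early stress genes had a median of 0.21, close to that of the WRKY genes, with 12 of 18 above 0. The cell-wall enzyme gene TCH4, induced by touch, had 70.8 and 53.4 normalized counts in bamboo, against 30.0, 37.0 and 39.5 in Col-0-b (0.79, SE 0.23, limma adjusted p = 0.154). PHI-1 followed at 0.76 with overlapping libraries. Bamboo replicate 2 was the higher bamboo library for 15 of these 18 genes, and the list had a median of 0.27 there, against 0.11 for bamboo replicate 3. The part of that library in the WRKY values was not tested beyond leaving it out.

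Salicylate genes had a median of 0.14 with 11 of 12 tested genes above 0, led by the isochorismate synthase ICS1 at 0.26 and the activator CBP60G at 0.23. The salicylate marker genes PR1, PR2 and PR5 had 0 reads in all 8 libraries, where 3 reads correspond to 0.123 to 0.22 CPM. Camalexin and indole genes, among them the WRKY33 target PAD3, had a median of -0.05 with 3 of 9 above 0, and the largest values were -0.22 for CYP79B3 and -0.19 for CYP71A13. PAD3 itself had 699 and 443 normalized counts in bamboo and 566, 639.7 and 655 in Col-0-b (-0.15, SE 0.18).

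Among phosphate genes, 3 of 6 were above 0 and the median was 0.07. PHO1, also counted among the root markers, which loads phosphate into the xylem and is repressed by WRKY6 and WRKY42, had 8361 and 8545 normalized counts in bamboo, against 10716, 10174 and 11714 in Col-0-b (-0.36, SE 0.08, limma adjusted p = 0.0904). Its libraries did not overlap, and PHR1, the activator of the phosphate starvation response, had 0.23. In the epidermal list, which holds partners of TTG2 such as TTG1 and GL3, 2 of 7 were above 0 with a median of -0.15. EGL3 had 173 and 230.5 normalized counts in bamboo and 273, 292 and 301 in Col-0-b (-0.53, SE 0.13, limma adjusted p = 0.112), and MYB23 had -0.35. Senescence genes had a median of 0.05, with SEN1 at 0.85 and NYC1 at 0.40.

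**Figure D4:**
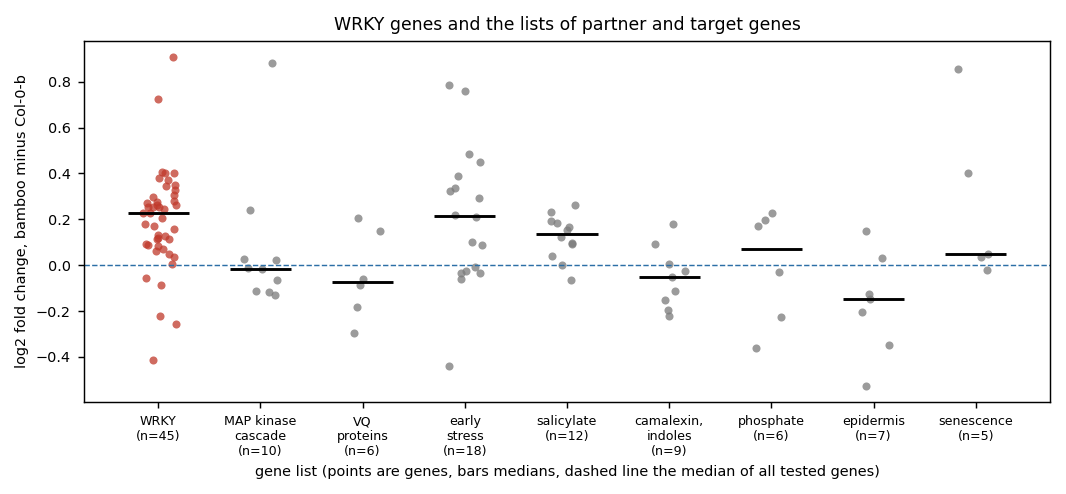
The vertical axis is the log2 fold change, bamboo minus Col-0-b; points are tested genes, bars are medians and the dashed line is the median of all tested genes. The 45 WRKY genes have a median of 0.23 and the 18 early stress genes 0.21, while the other lists have medians from -0.15 to 0.14.

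Some read counts may be affected by overlapping neighbours. In the RefSeq annotation 10 of the 46 members overlap another gene, WRKY33, WRKY40, WRKY41, WRKY53 and WRKY69 among them. No source used here states the strand setting of the counting. How reads inside the stretch shared by a member and its partner were counted, or whether they were left out, is therefore not known.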

How the data were processed

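For Col-0 the authors deposited raw gene counts. For bamboo and Col-0-b they deposited a signal, which is each library's counts over its size factor (0.811 to 1.18); the sources used here do not say how those factors were estimated. Trimmomatic, STAR 2.7.2a, featureCounts (Subread 1.6.5) and the build TAIR10 are named in the submitters' processing notes. The 3 wild-type columns beside bamboo were read as Col-0-b, since Col-0 has columns of its own. Another 6 columns, whose names do not settle which line they are, were not used. Dividing the signal by the value of 1 read gave whole numbers, within 0.01, for 100% of values; these are the recovered reads.

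Values were compared as log2(normalized count + 1) in limma 3.58.1 (R 4.3.3, trended, robust, group as the only term) over 20274 genes with a value of at least 10 in at least 2 libraries, with Benjamini-Hochberg adjustment at 0.05. Alternatives were a pseudocount of 8, no filter, TMM rescaling, edgeR 4.0.16 and DESeq2 1.42.0 on the recovered reads, a replicate block and leaving out each library. On simulated counts with known changes the limma step called most changed genes with the right sign, but its share of false calls was above the nominal threshold. Members, lists and rules were chosen with earlier results of these data known. Named with values in every library were group IIa and, per group, the gene with the highest Col-0-b mean and the 2 largest differences; per list, called genes or the 2 largest differences. Other genes named with values, including PAD3, were chosen after their values were seen. Levels per length, promoter motifs and protein features, which had been planned, were not analysed here. The pick of the highest Col-0-b mean per group thus used counts not divided by length. Apart from that pick, levels are not compared between genes. Symbols came from RefSeq (TAIR10.1), which holds 37051 of 37336 features and all 46 members; because the builds differ in name, it served only for names and for which genes neighbour or overlap, and no coordinate of it is given.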

Additional observations from a re-analysis of the deposited data

How the results depend on the processing

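The 40 members with a fold change above 0 ranged from 37 to 40 when 1 bamboo or Col-0-b library was left out, and were 40 or 41 in the other alternatives. Their median was 0.14 without bamboo replicate 2 and at most 0.26 (without bamboo replicate 3), and the group I median ran from 0.13 to 0.19. The 0 members called as higher became 1 with DESeq2, 7 with a replicate block and 0 to 10 on leaving out a library, the 10 without bamboo replicate 3; no alternative called a member as lower. Called list genes, 0 in each direction, became 1 lower with DESeq2, 4 higher and 2 lower with the block, and 0 to 9 higher and 0 to 3 lower on leaving out a library. Over all genes, 14 higher and 13 lower became 46 and 29 without the filter, which tests more genes, 186 and 121 with DESeq2, 513 and 379 with the block, and 6 to 894 and 4 to 1052 on leaving out a library, highest without bamboo replicate 3; the cause was not tested. With 1 bamboo library left, its spread is taken to be that of Col-0-b. The genotypes share only replicate numbers 2 and 3, whose differences correlated at 0.08 across genes, so the numbers are not taken as pairs. Of 231 values of the 21 named members under 11 alternatives, 221 moved by less than 1 SD between replicates and 2, both of WRKY40, turned sign. The replicate block gives the same fold changes as leaving out Col-0-b replicate 1, the only library of that number. For fold changes these are thus not separate checks. Members past 2-fold between Col-0 libraries, 14, became 3 to 11 with 1 library left out, an alternative chosen after seeing the data. Depth limits WRKY41, WRKY30, WRKY46 and WRKY38: 3 reads correspond to 2.54 to 3.7 normalized counts.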

Other observations

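Some of the genes that WRKY factors act with differed between the wild types in the direction opposite to WRKY40 and WRKY18. They were picked after their values were seen, and the tables were processed separately, so no test was made. Of 19593 genes past both minimums, 25.0% were lower in every Col-0 library than in every Col-0-b library, and 27.8% were higher. How many list genes lay each way was not counted. CYP71A12, an enzyme of indole defence compounds, had 39.0, 18.6 and 121.7 CPM in Col-0, against 874, 859 and 775 CPM in Col-0-b. CYP71A13, which acts in camalexin synthesis, had 0.286, 0.0943 and 2.86 CPM in Col-0 and 6.60, 5.95 and 9.98 CPM in Col-0-b. PAD3, the last enzyme of camalexin synthesis, had 15.5, 13.5 and 12.4 CPM in Col-0 and 27.3, 30.6 and 31.6 CPM in Col-0-b. CBP60G, an activator of salicylate synthesis, had 1.10, 4.15 and 22.4 CPM in Col-0 and 45.6, 42.4 and 34.9 CPM in Col-0-b. In these 4 genes the wild types did not overlap, Col-0 being lower. They did not overlap in EDS1 either, a hub of resistance signalling, but there Col-0 was higher. EDS1 had 48.1, 55.3 and 48.5 CPM in Col-0 and 37.4, 37.7 and 38.3 CPM in Col-0-b.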
